A study of Homo sapiens with 6 samples.

Results

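The genes described here are 40 genes of cytokines, chemokines and the NF-kB pathway, out of 57820 genes listed for each sample. They were chosen by name, with earlier results of these data known, and the choice rests on no cutoff in their values. Each name matched a row in all 6 samples. In these rows CXCL8 carries its older name IL8. Of the 40 members, 30 encode secreted ligands (9 interleukins and related cytokines, 3 colony-stimulating factors, TNF and 17 chemokines), and 10 encode NF-kB subunits, their inhibitors and the feedback genes TNFAIP3 and BIRC3.

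RNA-seq covered AID-DIvA cells, a line derived from the U2OS osteosarcoma line that carries the restriction enzyme AsiSI in a form that enters the nucleus only when it is induced. All 6 samples were untreated. The 3 WT samples carried intact ARID1A and the 3 ARID1A-KO samples were cells in which ARID1A, a subunit of the SWI/SNF chromatin remodelling complex, had been cut with Cas9 and 2 crRNAs, after which clones were established. The sources used here do not say which clone was sequenced, so the KO samples may share 1 clone. The study describes its RNA-seq replicates, numbered 3 to 5 in each genotype, as independent experiments, and the p-values measure the spread between these samples.

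The samples held between 54512105 and 84088708 reverse-stranded counts, and the error of counting matters chiefly for members under about 1 CPM (counts over the library size, scaled to 1e+06, with library sizes adjusted by TMM). ARID1A had 173 ± 6.67 CPM (SD, n = 3) in WT and 25.9 ± 1.38 CPM (n = 3) in KO samples, a log2 fold change of -2.74. WT and KO samples lay apart on the first principal component, which took up 75.1% of the variance. Of the markers of the mesenchymal and osteoblast lineage, VIM, SPARC and COL1A1 were abundant, whereas COL1A2 had at most 0.270 CPM and BGLAP at most 0.180 CPM in any sample. In KO samples ALPL (log2 fold change -2.45), SPARC (-0.89) and COL1A1 (-0.47) were lower and VIM (0.84) was higher, each at an adjusted p under 0.05. RUNX2 (-0.03) and COL1A2 (-0.46) did not pass this threshold, and IBSP had at most 3 counts in any sample. Of 12 leukocyte markers, 4 had enough counts to be tested, NKG7 had no count in any sample, and their summed level was 12.7 to 15.8 TPM (a level per length, in which each sample sums to 1e+06) in WT and 10.1 to 12.3 TPM in KO samples. PTPRC was lower in KO samples (log2 fold change -2.10), CD3D was lower (-0.70) and ITGAM was higher (2.95), and their part in the results was not tested.

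1 KO sample stood apart for these genes. KO replicate 5 was the highest of its genotype for 20 of the 28 members tested (71.4%), as against 41.4% of all genes tested. Results that rest on it are given with and without it.

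NF-kB is a family of dimeric transcription factors that are held in the cytoplasm by IkB inhibitor proteins until a signal such as TNF or IL-1 leads to the breakdown of the inhibitor. In the non-canonical branch, the kinase NIK leads to processing of the NFKB2 precursor, which works with RELB. NF-kB induces many cytokines and chemokines, and also its own inhibitors, which end the response. Cytokines such as IL-6 and chemokines such as CCL2 are also made by mesenchymal cells and tumor cells, and draw in or activate leukocytes.

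To show the DNA that NF-kB can read next to these genes, the kB consensus, a motif of 10 bases, was searched on both strands in RefSeq promoters (GRCh38.p14) from 250 bases before to 50 bases after the annotated start. The promoter table held 29 of the 40 members. The members not in it were LIF, IL18, IL15, CSF1, CSF3, CXCL16, CX3CL1, CCL2, CCL5, RELB and NFKBIE. A match was present for 17 of the 29 members (58.6%), and for 13.25% of the 27305 genes in the table. Counted by promoter, it was present in 19 of 37 member promoters (51.4%) and in 11.3% of all 35116 promoters. For AP-1, the letters TGANTCA were present for 5 of the 29 members (17.2%) and for 9.37% of all genes. Matches can overlap, as in a run that reads as the consensus from either end, and a match is a description of the sequence and not evidence of binding. The members were chosen by name around the NF-kB pathway, so their higher share of kB matches is a description of the list and not a test.

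The stretches below lie before the start and read 5′ to 3′ on the strand of the gene, with the kB consensus match in capitals. The first set is of chemokines with the ELR motif, which attract neutrophils. It is shown because all 4 carry the same run of bases, while none had enough counts to be tested. CXCL3, an ELR chemokine that was tested and not called, carries the same run.
CXCL1 (chr4:73869299-73869339, plus strand): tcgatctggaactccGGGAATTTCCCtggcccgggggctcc
CXCL2 (chr4:74099248-74099288, minus strand): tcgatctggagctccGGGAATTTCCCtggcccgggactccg
CXCL5 (chr4:73998743-73998783, minus strand): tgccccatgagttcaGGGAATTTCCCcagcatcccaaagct
CXCL6 (chr4:73836573-73836613, plus strand): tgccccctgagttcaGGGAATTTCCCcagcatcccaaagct

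The second set holds genes that differed between the genotypes, IL6 being lower and the other 4 higher in KO samples.
IL6 (chr7:22727112-22727151, plus strand): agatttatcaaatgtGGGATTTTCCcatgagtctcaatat
CCL20 (chr2:227813748-227813787, plus strand): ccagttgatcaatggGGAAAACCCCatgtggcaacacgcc
NFKB2, the third of its promoters (chr10:102395514-102395704, plus strand): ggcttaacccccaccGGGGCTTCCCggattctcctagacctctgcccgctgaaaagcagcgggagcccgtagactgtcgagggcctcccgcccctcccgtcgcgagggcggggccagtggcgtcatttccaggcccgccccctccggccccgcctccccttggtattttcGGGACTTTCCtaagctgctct
NFKBIZ, the first of its promoters (chr3:101827752-101827791, plus strand): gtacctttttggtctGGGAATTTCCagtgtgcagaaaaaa
BIRC3 (chr11:102317270-102317373, plus strand): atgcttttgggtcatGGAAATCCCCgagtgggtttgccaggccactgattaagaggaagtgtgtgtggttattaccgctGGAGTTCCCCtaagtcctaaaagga

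The third set holds 2 genes of the negative feedback that were not called.
NFKBIA (chr14:35404806-35404845, minus strand): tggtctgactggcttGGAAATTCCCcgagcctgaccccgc
TNFAIP3 (chr6:137867177-137867228, plus strand): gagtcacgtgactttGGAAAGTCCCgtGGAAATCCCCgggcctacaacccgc

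**Figure D1:**
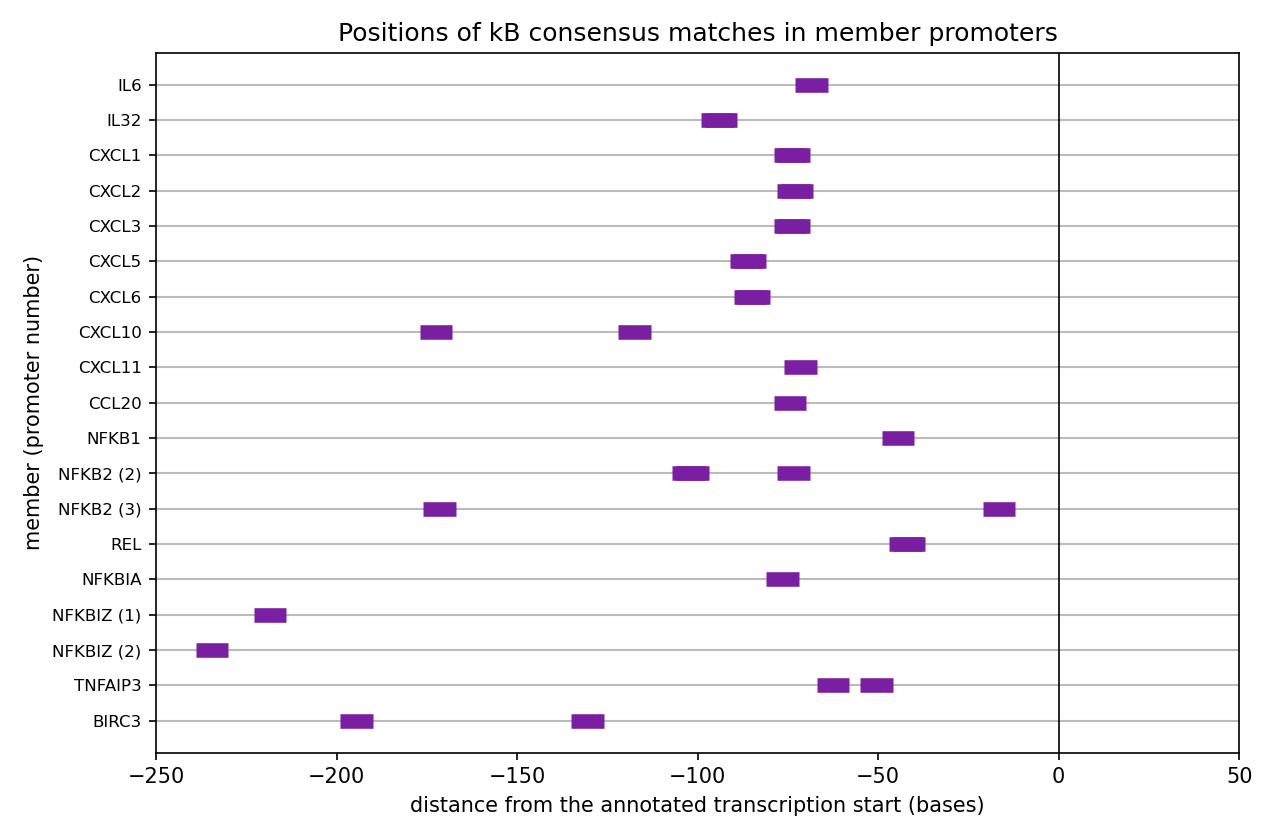
Position of kB consensus matches (purple boxes, overlapping matches drawn together) in the member promoters that hold one before the start, with the distance from the annotated start in bases on the horizontal axis and 1 line per promoter. In IL6, CCL20 and the CXCL genes at least 1 match lies between positions -122 and -64, and in BIRC3 the matches lie between positions -199 and -126.

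Matches were found in all 4 of the members called higher that are in the table, in 2 of the 4 called lower (IL6 and IL32), in 5 of the 11 not called and in 6 of the 10 not tested. Thus genes with a match were found among those that were higher, lower and too low to be tested. The groups are small, and no test was made of these counts.

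For the comparison of ARID1A-KO with WT samples, 28 of the 40 members had enough counts to be tested among 19599 genes. Leaving aside members that passed the filter on low counts through 1 genotype alone, the called differences of 2-fold or more were lower levels of the monocyte chemokine CCL2, IL6, IL15 and CX3CL1, and higher levels of NFKB2 and RELB, the subunits of the non-canonical NF-kB pathway, and of BIRC3. At an adjusted p under 0.05 from edgeR's quasi-likelihood test, 14 members were called (50%), as against 36.2% of all genes tested. Of these, 6 were higher in KO samples, where the background was 17.8% of all genes, and 8 were lower, where it was 18.4%. CCL7 and CCL26, both among the 8, were over the filter's minimum in every sample of the WT genotype only, where they are high, so they add nothing to this count. With at least 10 counts required in every sample, 6 members were higher and 6 were lower. The CPM of the genotypes did not overlap for 15 members, and for 49.5% of all genes. A change of 2-fold or more was called for 9 members, 3 higher and 6 lower, and for 10.8% of all genes (4.86% higher and 5.92% lower). The 6 include CCL7 and CCL26, which add nothing here either. With at least 10 counts required in every sample, 3 members were higher and 4 were lower by 2-fold or more, against 3.40% and 4.42% of all genes. Without KO replicate 5, under the main filter, the 2-fold changes were 0 higher and 8 lower, against 4.45% and 6.93% of all genes. The 8 include CCL7, CCL26 and CSF2, which their WT samples carried past the filter. Without WT replicate 3 the 2-fold changes were 0 higher and 6 lower, CCL7 and CCL26 included, against 4.59% and 5.41% of all genes. The median log2 fold change over the 28 members was -0.235, with a range from -3.36 to 1.48, and over all genes it was 0.0066.

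Of the 30 ligands, 18 were tested. Of these, 8 were lower, 1 was higher and 9 were not called, with a median log2 fold change of -0.56. The 8 and the median include CCL7 and CCL26, which were over the filter's minimum in every sample of the WT genotype only. With at least 10 counts required in every sample, 6 ligands were lower and 0 were higher. Over all genes tested, 18.4% were lower and 17.8% were higher. All 10 NF-kB proteins and feedback genes were tested, and 5 were higher, 0 were lower and 5 were not called, with a median of 0.38. With edgeR at an unadjusted p under 0.05 and with DESeq2, 0 of the 10 were lower as well, but TNFAIP3 was called lower under 3 of 12 alternative settings. Without WT replicate 3 only NFKB2 and NFKBIE of the 10 were called higher, and without WT replicate 5 the count was 3. Without KO replicate 5, 6 members were higher and 12 were lower, and 7050 of 19991 genes were called in either direction. CCL20 was then no longer called, RELA was called higher, and CSF1, CSF2, IL8 and TNFAIP3 were called lower. CCL7, CCL26 and CSF2, all among the 12, were carried past the filter there by their WT samples, so they add nothing to this count.

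**Figure D2:**
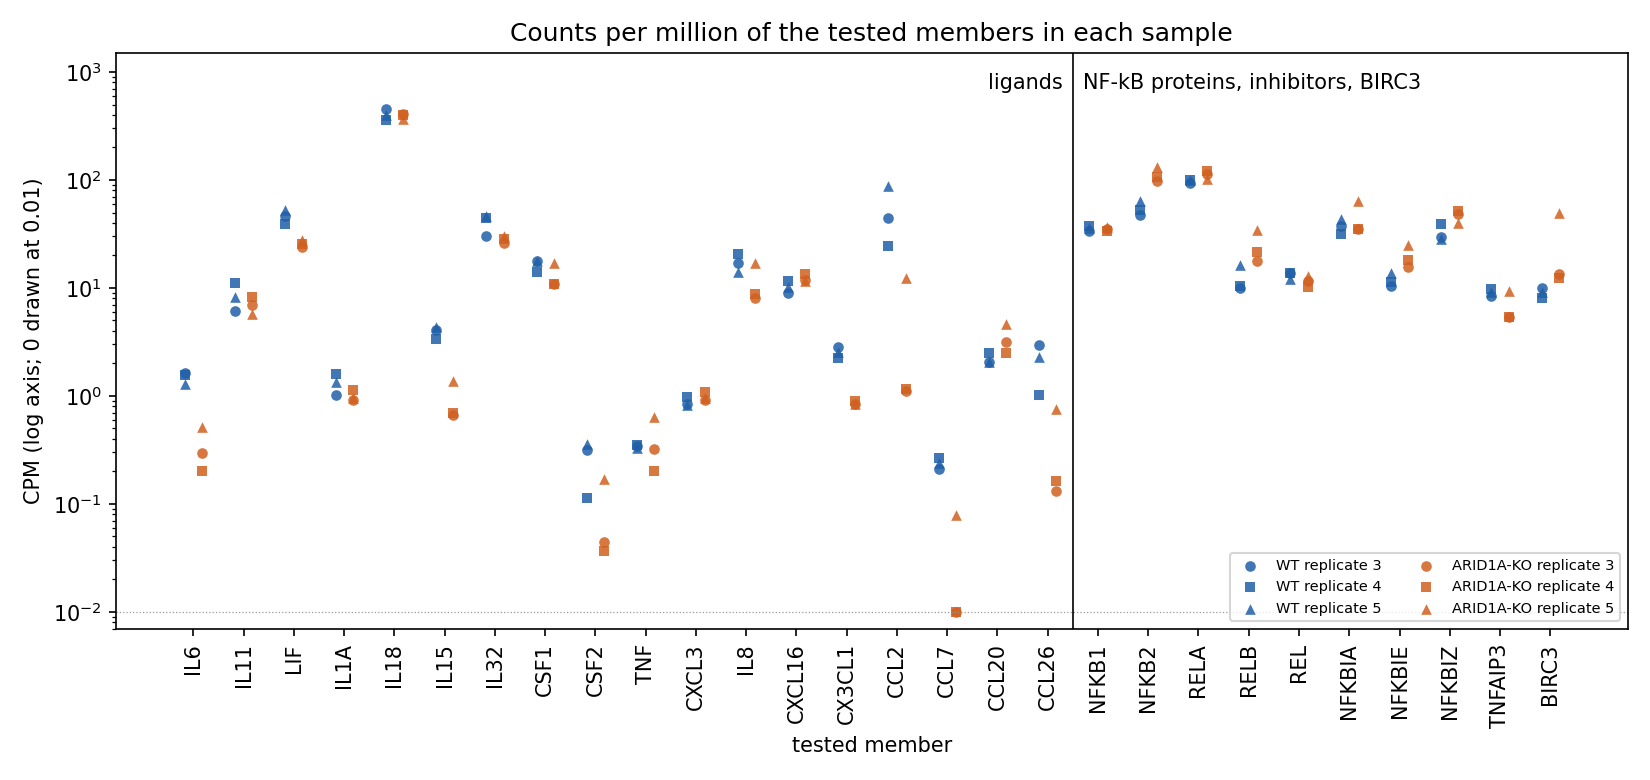
CPM on a log axis of each of the 28 tested members in the 3 WT (blue) and 3 ARID1A-KO samples (orange), with a mark for each replicate number and a count of 0 drawn at 0.01. The KO samples lie below every WT sample for IL6, IL15, CX3CL1 and CCL2 and above every WT sample for NFKB2, while KO replicate 5 (orange triangles) lies far above the other KO samples for CCL2, CCL26 and BIRC3.

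Of the interleukins, IL6, the chief inducer of the acute phase response, had 1.62, 1.56 and 1.29 CPM in WT replicates 3, 4 and 5, and 0.294, 0.200 and 0.511 CPM in the KO replicates of the same numbers. All KO samples were below all WT samples, and KO replicate 5 was the nearest to them. IL6 (ENSG00000136244.7, chr7:22765503-22771621 in GRCh37, plus strand) was 4.27-fold lower in KO samples (log2 fold change -2.09 ± 0.29 SE, adjusted p = 0.00057). It kept its call under all 12 alternatives, with log2 fold changes from -2.57 to -1.86.

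IL15, which sustains natural killer cells and memory T cells, had 4.12, 3.34 and 4.33 CPM in WT and 0.661, 0.691 and 1.39 CPM in KO samples. The genotypes did not overlap, and KO replicate 5 was again the highest of the KO samples. IL15 (ENSG00000164136.12, chr4:142557752-142655140, plus strand) was 4.21-fold lower (log2 fold change -2.07 ± 0.27, adjusted p = 0.000412), and all 12 alternatives called it.

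LIF, a cytokine of the IL-6 family that acts on stem cells and bone cells, had 46.3, 39.1 and 52.8 CPM in WT and 24.1, 25.6 and 28.04 CPM in KO samples. The KO samples lay close together and below all WT samples. LIF (ENSG00000128342.4, chr22:30636436-30642840, minus strand) fell by 0.83 on the log2 scale (SE 0.11, adjusted p = 0.00043), and all 12 alternatives called it.

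IL32, an inducer of other cytokines, had 30.3, 44.1 and 46.4 CPM in WT and 26.3, 28.1 and 30.5 CPM in KO samples. Here the genotypes overlapped, since WT replicate 3 was as low as KO replicate 5. IL32 (ENSG00000008517.12, chr16:3115298-3131908, plus strand) was called lower by a smaller step (log2 fold change -0.51 ± 0.14, adjusted p = 0.0215), and the call was lost without WT replicate 4 (adjusted p = 0.0533) or 5 (0.0832), or without KO replicate 3 (0.074) or 4 (0.0619). A small nuclear RNA pseudogene, RNU1-125P, overlaps it on the same strand and holds 0.648% of its windows of 100 bases.

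IL18, an activator of interferon gamma production, was the most abundant of all members per length, with 503 ± 65.3 TPM (n = 3) in WT and 485 ± 9.50 TPM in KO samples. Its log2 fold change was -0.04 ± 0.09 (adjusted p = 0.737), and its CPM overlapped between the genotypes, at 358 to 454 in WT and 369 to 405 in KO samples. IL11 had a mean of 10.4 TPM in WT and 8.53 TPM in KO samples (log2 fold change -0.28 ± 0.21, adjusted p = 0.326), and IL1A had 2.04 and 1.54 TPM (-0.41 ± 0.21, adjusted p = 0.153). Neither was called under any of the 12 alternatives. IL1B and IL33 had at most 5 counts in any sample and were not tested.

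Of the colony-stimulating factors, CSF1, the growth factor of macrophages, had 17.7, 14.1 and 17.8 CPM in WT and 10.96, 10.8 and 16.9 CPM in KO samples. Only KO replicate 5 reached the WT range. CSF1 was not called (log2 fold change -0.35 ± 0.17, adjusted p = 0.145), but without KO replicate 5 its log2 fold change was -0.60 (adjusted p = 0.0055). With all 6 samples it was called lower with no filter on low counts (adjusted p = 0.00783) and with a block for the replicate number (0.0312).

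CSF2, the granulocyte-macrophage factor, had 0.315, 0.113 and 0.361 CPM in WT and 0.0441, 0.0364 and 0.17 CPM in KO samples. The genotypes overlapped through WT replicate 4 and KO replicate 5. CSF2 was not called (log2 fold change -1.47 ± 0.61, adjusted p = 0.0884). Without KO replicate 5 the log2 fold change was -2.61 (adjusted p = 0.0195), and without WT replicate 4 it was -1.85 (adjusted p = 0.027). In both fits WT replicates 3 and 5 carried CSF2 past the filter, while KO replicates 3 and 4 had 3 and 2 counts. CSF2 was also called lower with no filter on low counts (adjusted p = 0.00746) and with a block for the replicate number (0.0192). CSF3 had at most 2 counts in any sample.

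TNF, the main inflammatory activator of NF-kB, had 0.345, 0.352 and 0.327 CPM in WT and 0.323, 0.200 and 0.636 CPM in KO samples. The WT samples lay within the range of the KO samples, of which KO replicate 5 was the highest. Its log2 fold change was 0.24 ± 0.38 (adjusted p = 0.671), and without KO replicate 5 it was -0.36 (adjusted p = 0.42), so that no direction can be given.

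The largest fitted difference among the tested members was that of the CC chemokine CCL2. Of the other CC chemokines, CCL7 and CCL26 were called lower but were over the filter's minimum in every sample of the WT genotype only. CCL20 was called higher and CCL5 was not tested. CCL2, which attracts monocytes, had 44.6, 24.5 and 87.2 CPM in WT and 1.10, 1.17 and 12.3 CPM in KO samples. Each KO sample was below each WT sample, with a wide spread in both genotypes. CCL2 (ENSG00000108691.5, chr17:32582304-32584222, plus strand) was 10.2-fold lower (log2 fold change -3.36 ± 0.82, adjusted p = 0.0113). All 12 alternatives called it, and without KO replicate 5 the log2 fold change was -5.52 (adjusted p = 0.000205). Per length, its mean of 150 TPM in WT was second only to IL18 among the ligands.

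CCL7, a neighbour of CCL2 that also attracts monocytes, had 0.210, 0.268 and 0.241 CPM in WT samples, no count in KO replicates 3 and 4, and 0.0795 CPM in KO replicate 5. Its counts were thus few in every sample, and it passed the filter on low counts through the WT samples. CCL7 (ENSG00000108688.7, chr17:32597240-32599261, plus strand) was called lower (log2 fold change -2.81 ± 0.72, adjusted p = 0.0133). Without KO replicate 5, where the KO samples have no count, it was at least 9.82-fold lower, set against 3 counts over both libraries (0.0244 CPM).

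CCL26, an attractant of eosinophils, had 2.98, 1.01 and 2.29 CPM in WT and 0.132, 0.164 and 0.761 CPM in KO samples. The genotypes did not overlap, although WT replicate 4 and KO replicate 5 were near each other. CCL26 (ENSG00000006606.4, chr7:75398851-75419214, minus strand) was 5.50-fold lower (log2 fold change -2.46 ± 0.59, adjusted p = 0.00983), and without KO replicate 5 the log2 fold change was -3.81 (adjusted p = 0.000952). The filter's minimum, which all its WT samples and 2 of its KO samples exceeded, was 0.148 CPM.

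CCL20, the ligand of CCR6 that attracts dendritic cells and Th17 cells, was the single ligand called higher. It had 2.08, 2.48 and 2.06 CPM in WT and 3.13, 2.51 and 4.62 CPM in KO samples. The genotypes did not overlap, but KO replicate 4 was next to WT replicate 4. CCL20 (ENSG00000115009.7, chr2:228678558-228682272, plus strand) was just past the threshold (log2 fold change 0.64 ± 0.22, adjusted p = 0.0486). It was called under 6 of the 12 alternatives and not without KO replicate 5 (log2 fold change 0.35, adjusted p = 0.138), KO replicate 3 (0.70, adjusted p = 0.0707), WT replicate 3 (0.59, adjusted p = 0.134) or WT replicate 5 (0.59, adjusted p = 0.134). The call was also lost with at least 10 counts in every sample (adjusted p = 0.0528) and with a block for the replicate number (0.0543).

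CX3CL1, a chemokine that is anchored in the membrane and binds CX3CR1, had 2.82, 2.24 and 2.58 CPM in WT and 0.837, 0.892 and 0.841 CPM in KO samples. The 3 KO samples differed little from each other, KO replicate 5 included. CX3CL1 (ENSG00000006210.6, chr16:57406370-57418960, plus strand) was 2.97-fold lower (log2 fold change -1.57 ± 0.16, adjusted p = 9.7e-05), with values from -1.66 to -1.50 under the 12 alternatives, all of which called it. CXCL16, the other chemokine with a membrane anchor, had 9.01, 11.5 and 10.2 CPM in WT and 11.9, 13.3 and 11.7 CPM in KO samples. The genotypes did not overlap by a narrow margin, and CXCL16 was not called (log2 fold change 0.26 ± 0.11, adjusted p = 0.0937).

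IL8, the neutrophil chemokine CXCL8, had 17.1, 20.8 and 14.04 CPM in WT and 8.06, 8.81 and 16.9 CPM in KO samples. KO replicates 3 and 4 were below all WT samples and KO replicate 5 was within the WT range. IL8 was not called (log2 fold change -0.61 ± 0.26, adjusted p = 0.0987), and without KO replicate 5 it was (log2 fold change -1.04, adjusted p = 0.00131). With all 6 samples IL8 was called lower with no filter on low counts (adjusted p = 8.27e-07). CXCL3 had a mean of 1.31 TPM in WT and 1.46 TPM in KO samples (log2 fold change 0.16 ± 0.18, adjusted p = 0.532), and 3.27% of its windows of 100 bases are also found in CXCL2, so its counts are uncertain to that extent.

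The other chemokines of the CXC group and CCL5 were at or near 0. CXCL1 had no count in any of the 6 samples, which allows for up to 3 counts in each. CXCL2 had 1 count in 2 samples, CXCL6 had at most 5 counts, and the CXCR3 ligands CXCL9, CXCL10 and CXCL11, which are induced by interferon, had at most 13, 18 and 8 counts. CXCL12 had 3 to 10 counts and CCL5 had 1 to 36. CXCL5 had 3, 1 and 2 counts in WT samples and 6, 4 and 201 counts in KO samples, so that KO replicate 5 alone carried nearly all of its reads.

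**Figure D3:**
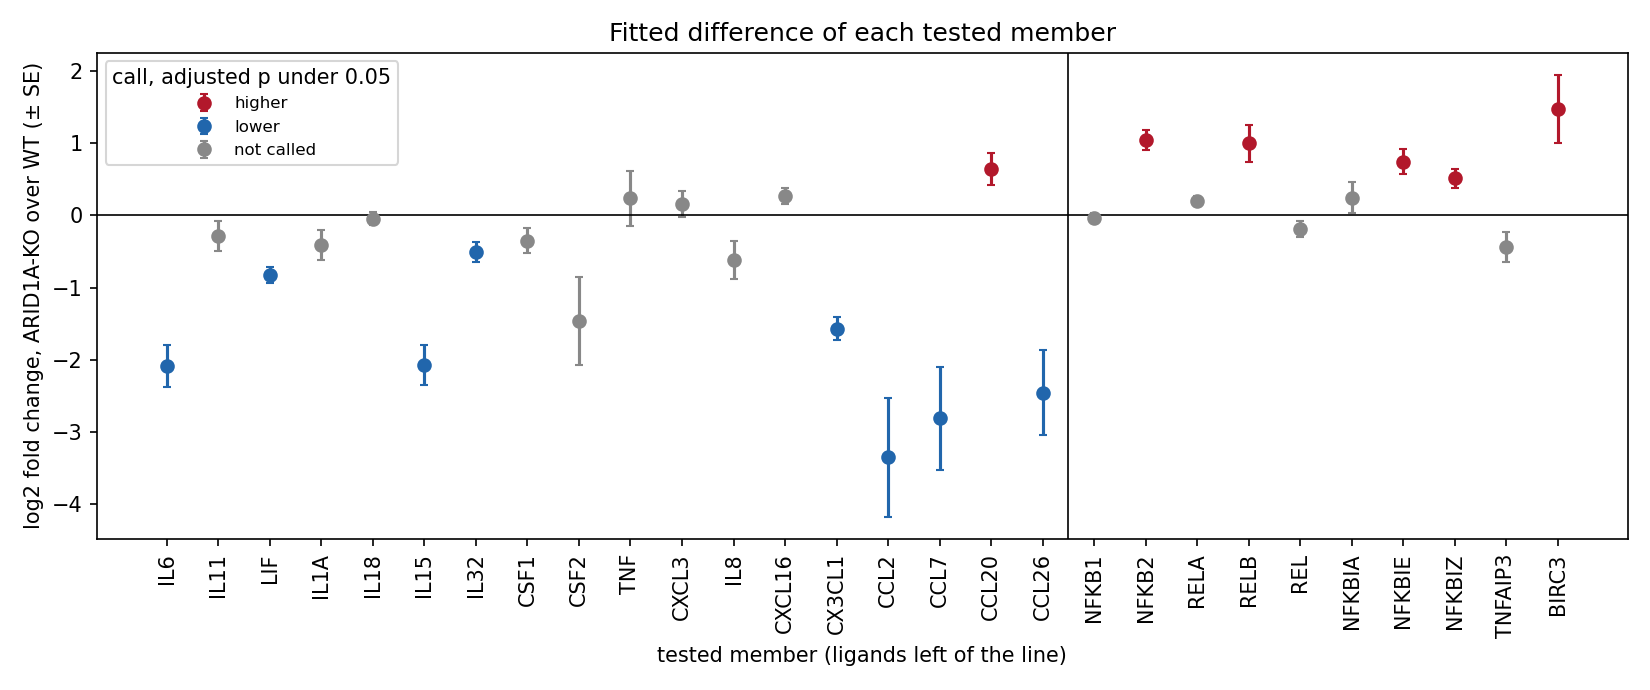
Fitted log2 fold change of ARID1A-KO over WT for each tested member, with bars of 1 SE, colored by the call at an adjusted p under 0.05 (red higher, blue lower, grey not called), ligands left of the line. Called ligands lie below 0 except CCL20 at 0.64, and the called NF-kB proteins and feedback genes lie above 0, up to BIRC3 at 1.48.

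The 5 subunits of NF-kB are the products of NFKB1, NFKB2, RELA, RELB and REL. NFKB2, whose precursor restrains NF-kB until it is processed, had 47.3, 52.4 and 63.4 CPM in WT and 97.5, 106 and 133 CPM in KO samples. All KO samples were well above all WT samples. NFKB2 (ENSG00000077150.13, chr10:104153867-104162281, plus strand) was 2.07-fold higher (log2 fold change 1.05 ± 0.13, adjusted p = 0.000337), with values from 0.91 to 1.17 under the 12 alternatives, all of which called it.

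RELB, the partner of the processed NFKB2 protein, had 10.1, 10.5 and 16.5 CPM in WT and 17.95, 21.4 and 34.6 CPM in KO samples. Replicate 5 was the highest in both genotypes, and WT replicate 5 was close to KO replicate 3. RELB (ENSG00000104856.9, chr19:45504688-45541452, plus strand) was 2.01-fold higher (log2 fold change 1.004 ± 0.26, adjusted p = 0.0134). It was called under 11 of 12 alternatives, with log2 fold changes from 0.67 to 1.26 over all of them. KO replicate 5 was 1.76 times the mean of the other 2 KO samples. Without KO replicate 5 RELB kept its call, but at less than 2-fold. Without WT replicate 3 the log2 fold change was 0.87 (adjusted p = 0.0608).

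RELA, the activating subunit of the canonical dimer, had 93.5, 99.8 and 99.9 CPM in WT and 113, 122 and 103 CPM in KO samples. The KO samples were all higher, by a small margin, and RELA was just outside the threshold (log2 fold change 0.20 ± 0.07, adjusted p = 0.0526). It was inside the threshold under 4 alternatives, with an adjusted p of 0.0158 without KO replicate 5. NFKB1, the other part of the canonical dimer, had 18.8 ± 0.940 TPM (n = 3) in WT and 18.3 ± 1.195 TPM in KO samples (log2 fold change -0.03 ± 0.07, adjusted p = 0.753). REL had 3.86 ± 0.309 TPM in WT and 3.37 ± 0.445 TPM in KO samples (log2 fold change -0.19 ± 0.11, adjusted p = 0.196), and 31.4% of its windows of 100 bases are found in other genes too, so its level is uncertain.

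Of the inhibitors, NFKBIE, which encodes IkB epsilon, had 10.3, 11.4 and 13.7 CPM in WT and 15.8, 18.2 and 25.3 CPM in KO samples. The genotypes did not overlap, with replicate 5 the highest of each. NFKBIE (ENSG00000146232.10, chr6:44225903-44233500, minus strand) was 1.68-fold higher (log2 fold change 0.75 ± 0.17, adjusted p = 0.00852), and all 12 alternatives called it.

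NFKBIZ, a nuclear IkB that co-activates secondary response genes such as IL6, had 29.8, 39.0 and 28.5 CPM in WT and 48.0, 51.4 and 40.0 CPM in KO samples. KO replicate 5 was the lowest of the KO samples here and was close to WT replicate 4. NFKBIZ (ENSG00000144802.7, chr3:101546835-101579866, plus strand) was 1.43-fold higher (log2 fold change 0.51 ± 0.13, adjusted p = 0.0133). The call was lost without WT replicate 3 (adjusted p = 0.0558), WT replicate 5 (0.0562) or KO replicate 4 (0.0535). NXPE3 overlaps it on the same strand.

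NFKBIA encodes IkB alpha, an inhibitor that NF-kB itself induces. It had 37.5, 31.9 and 43.8 CPM in WT and 35.4, 34.8 and 63.7 CPM in KO samples. KO replicates 3 and 4 lay within the WT range and KO replicate 5 lay above it. NFKBIA was not called (log2 fold change 0.25 ± 0.22, adjusted p = 0.417).

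TNFAIP3 encodes A20, an enzyme that edits ubiquitin and shuts down NF-kB signaling. It had 8.36, 9.78 and 9.24 CPM in WT and 5.33, 5.37 and 9.42 CPM in KO samples. KO replicate 5 was within the WT range and the other 2 were below it. TNFAIP3 was not called (log2 fold change -0.44 ± 0.21, adjusted p = 0.133). It was called lower under 3 of the 12 alternatives, among them the fit without KO replicate 5 (-0.77, adjusted p = 0.00145).

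BIRC3 encodes cIAP2, a ubiquitin ligase that protects from cell death by TNF and keeps NIK low. It had 10.01, 8.002 and 9.19 CPM in WT and 13.4, 12.3 and 49.6 CPM in KO samples. The genotypes did not overlap, and KO replicate 5 was 3.86 times the mean of the other 2 KO samples. BIRC3 (ENSG00000023445.9, chr11:102188215-102210134, plus strand) was called higher with a log2 fold change of 1.48 ± 0.47 (adjusted p = 0.0353), and 8 of 12 alternatives called it. Without KO replicate 5 the log2 fold change was 0.50 (adjusted p = 0.0114). The call was lost with DESeq2 (adjusted p = 0.0694) and without WT replicate 3 (0.0851), 4 (0.0744) or 5 (0.1).

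Over the 28 members, KO replicate 5 had a median of 0.60 on the log2 scale (with 0.1 CPM added) above the mean of the other 2 KO samples, and over all genes its median was 0.0073. KO replicate 3 had a median of -0.25 and KO replicate 4 of -0.27 for the members, and the medians of the 3 WT samples lay between -0.10 and 0.05. KO replicate 5 was over the mean of the others by 2-fold or more on this scale for CCL2, CCL26, BIRC3 and TNF, and for 1.23% of all genes. In CPM, the ratio was 10.9 for CCL2, 5.14 for CCL26 and 4.24 for CSF2. For CX3CL1 (0.973), CXCL3 (0.965), NFKB1 (1.06) and LIF (1.13) the sample was close to the other 2. Since these are bulk samples, a larger share of cells with much RNA of a gene and more RNA per cell cannot be told apart.

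**Figure D4:**
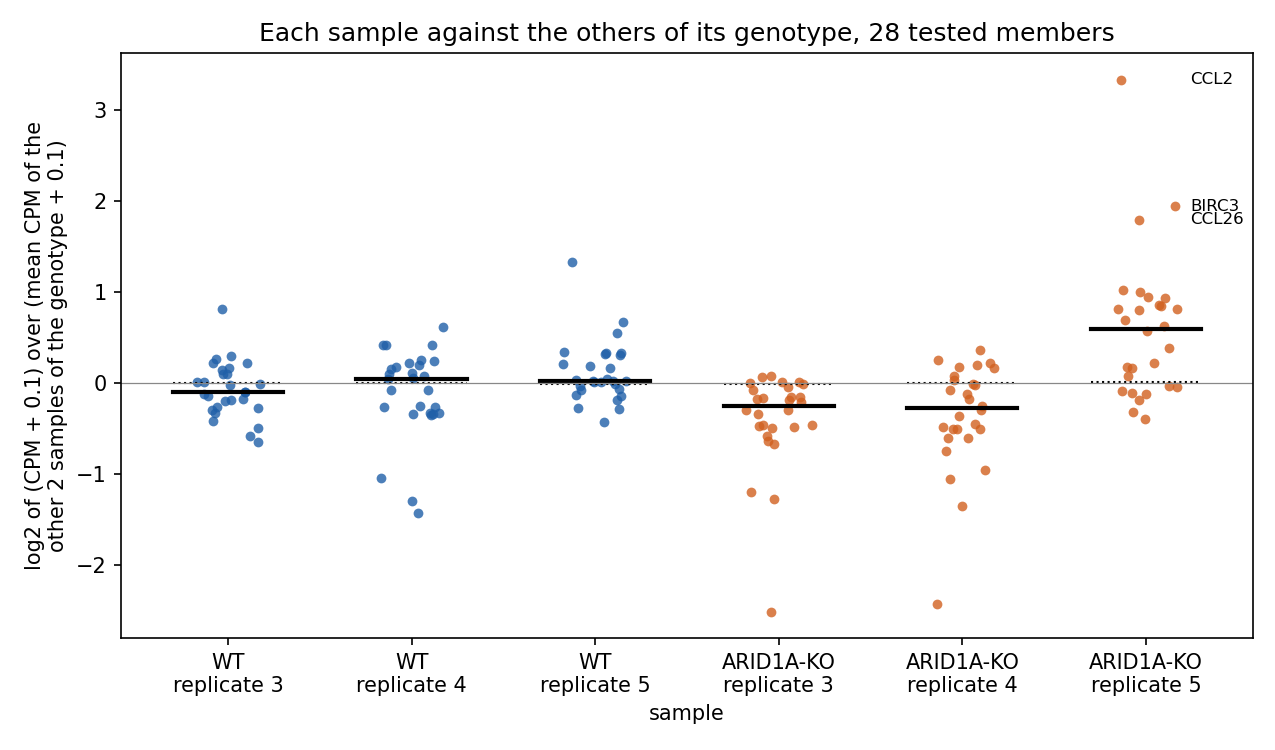
log2 of each sample's CPM (with 0.1 added) over the mean of the other 2 samples of its genotype, 1 point per tested member, with the median over the members as a thick line and the median over all genes as a dotted line. The median of KO replicate 5 is at 0.60, with CCL2, BIRC3 and CCL26 as its highest points, while the other 5 samples have medians between -0.27 and 0.05.

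The remaining genes of the pathway were read from lists of receptors, signaling proteins, other NF-kB targets and other cytokines. Of 29 cytokine and chemokine receptors, 17 were tested, with 5 higher and 7 lower in KO samples and a median log2 fold change of -0.07. Over all genes 17.8% were higher, 18.4% were lower and the median was 0.0066, and the counts of each list below stand against the same shares. IL1RL1, the receptor of IL33, fell by 5.15 on the log2 scale, and had 10.7 ± 3.17 CPM (n = 3) in WT and 0.306 ± 0.0790 CPM in KO samples (adjusted p = 4.06e-06). CSF1R, the receptor of CSF1, fell by 3.34 (adjusted p = 2.11e-05), ACKR3, a scavenger of CXCL12, fell by 1.19, and IL1RAP, the shared chain of the IL-1 receptors, fell by 1.16. TNFRSF1B, the second TNF receptor, rose by 2.81 from 0.101 to 0.714 CPM, and CXCR2, a receptor of IL8, rose by 1.47 at less than 0.3 CPM. TNFRSF1B and CXCR2 were over the filter's minimum in all 3 KO samples but in 1 and 0 of the WT samples, and CSF1R in 3 WT and 2 KO samples, so that these genes passed the filter through the genotype where they are high. The call of CXCR2 was lost without WT replicate 3 (adjusted p = 0.0671), WT replicate 4 (0.0507) or KO replicate 5 (0.0563).

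Of 20 signaling proteins, all were tested, and 5 were higher and 2 were lower, with a median of 0.04, so that 35% were called, close to the 36.2% of all genes. TRAF1, an adaptor that NF-kB induces, had 2.20, 3.00 and 2.80 CPM in WT and 4.42, 4.86 and 16.2 CPM in KO samples (log2 fold change 1.68 ± 0.46, adjusted p = 0.0178). As for BIRC3, KO replicate 5 was by far the highest, and without it the log2 fold change was 0.80 (adjusted p = 0.00636). Without WT replicate 3 (adjusted p = 0.0709) or WT replicate 5 (0.0589) TRAF1 was not called. MAP3K14, which encodes NIK, the kinase upstream of NFKB2 processing, rose by 0.58 ± 0.11 (adjusted p = 0.0025), NFKBIB, which encodes IkB beta, by 0.67 ± 0.07, IRAK2 by 0.51 and TRADD by 0.44. TNIP1, a partner of A20, fell by 0.31. The call of IRAK2 was lost without WT replicate 3 (adjusted p = 0.0599), WT replicate 5 (0.0563) or KO replicate 4 (0.0674), and that of TNIP1 without WT replicate 5 (0.0961) or any 1 of the KO samples (up to 0.0965).

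Of 17 other NF-kB targets, 15 were tested, with 4 higher and 3 lower and a median of 0.04. PLAU, the urokinase, rose from 21.6 ± 0.763 to 79.2 ± 4.59 CPM (n = 3 each, log2 fold change 1.88 ± 0.07, adjusted p = 4.79e-07), PTGS2, the inducible cyclooxygenase, rose by 0.91 and ICAM1 by 0.58. ICAM1, an adhesion protein for leukocytes, lost its call without any 1 of WT replicates 3 to 5 or KO replicates 4 or 5, with an adjusted p of up to 0.143. TNFAIP6 fell by 1.63, PTX3 by 1.08 and SOD2, the mitochondrial superoxide dismutase, by 0.98. The called genes of this list thus went both ways.

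Of 25 other cytokines, 15 were tested, with 3 higher and 4 lower and a median of 0.08. IL16, which was over the filter's minimum in every sample of the WT genotype only, fell by 2.59, CXCL14 by 1.41 and IL12A by 0.83, while IL24 rose by 0.70. CCL3 rose by 3.19, from 0.539 ± 0.129 to 4.90 ± 0.246 CPM, and CCL4 rose by 1.36. CCL3 and CCL4 have near-identical copies in the genome that can share their reads, so their levels are uncertain.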

How the data were processed

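RNA-seq libraries were made with a stranded total RNA kit (the labels name polyA RNA as the molecule). The authors ran the Roddy workflow, in which STAR aligned the paired reads to GRCh37 and featureCounts gave counts per gene, and deposited these unnormalized counts beside TPM values. The reverse-stranded counts were used here, since forward counts came to 5.83% to 6.15% of them, and the deposited TPM served as level per length. Depth is given with the results.

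Genes that passed filterByExpr were compared, KO over WT, with the quasi-likelihood test of edgeR 4.0.16 (R 4.3.3) on all 6 samples after TMM, with Benjamini-Hochberg adjustment over all genes tested. CPM use the TMM library sizes. Errors are SD for levels and SE for log2 fold changes. Fits were tested on simulated data. No pair of samples in a genotype was as alike as sampling noise allows (chi-square per gene 7.57 to 32.9). KO replicates 3 and 4 were the most alike (7.57), and every other pair was at 18.1 or more. Fits without KO replicate 5 rest on this closest pair for the KO spread.

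The members and lists were chosen with earlier results of these data known. All members are named, with values for those called or with a mean TPM over 1, and from other lists at most 6 called genes with the largest changes. The 12 alternatives for a gene were DESeq2 1.42.0, RLE normalization in edgeR, unstranded counts, a minimum of 10 counts in each sample, all genes with a count, a block for the replicate number, and each of the 6 samples left out. An adjusted p under 0.01 was also tried for counts of genes. RefSeq promoters were matched by symbol.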

Additional observations from a re-analysis of the deposited data

How the results depend on the processing

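Counts of called members were 6 higher and 8 lower of 28, with 7099 genes called in all. They stayed within 1.5 times with unstranded counts, RLE normalization, DESeq2 and at least 10 counts in every sample. Without a filter, every member with a count was tested, so these counts are not out of 28. There 9 members were higher and 13 were lower, with 8223 of 36390 genes called. The 9 include CXCL5, with 201 counts in KO replicate 5 and at most 6 in any other sample. The 13 include CXCL9, with at most 13 counts. With an adjusted p under 0.01 there were 2 higher and 5 lower members and 4414 genes. When each sample was left out in turn, 2 to 6 members were higher, 7 to 12 were lower and 5285 to 7050 genes were called. The lowest count of higher members came without WT replicate 3, with 3 without WT replicate 5, and the highest count of lower members came without KO replicate 5. No called member changed direction under any alternative, and of 333 values of single members 296 kept their side of the threshold. The cause of these moves was not tested.

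With 3 samples in each genotype, it could not be settled whether the replicate numbers pair the samples. The deviations of same-numbered samples correlated at -0.245 for 3, 0.504 for 4 and 0.329 for 5. The value of 0.504 was the highest of all pairs, but KO replicate 5 correlated better with WT replicate 3 (0.410) and KO replicate 3 with WT replicate 4 (0.471). The main fit used no block. With the replicate number as a block, 7 members were higher, 11 were lower and 7477 genes were called.

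Depth limits the lowest members, since CCL7 and CSF2 had under 0.4 CPM in every sample.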

Other observations

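Levels of genes next to a member can move together with it. Within 5 Mb, the median log2 fold change of the tested neighbours was -0.54 for IL15 (47 neighbours), -0.42 for NFKBIZ (43), -0.31 for BIRC3 (36), 0.31 for NFKB2 (105) and 0.31 for CX3CL1 (67). For CCL2 it was 0.01 (129 neighbours), for IL6 -0.07 (67), for CCL26 0.03 (78) and for RELB 0.12 (294). The part of the neighbourhood in the members' values was not tested.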
